A study of Homo sapiens with 8 samples.

Results

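The untreated subline A2780CP20 was compared with its untreated parent line A2780 across all genes that a probe set with a single gene symbol measured. A2780 is an established human ovarian carcinoma cell line, and A2780CP20 is known in the field as a cisplatin-resistant subline grown from it. The labels give both lines as ovarian carcinoma with no treatment, and they state neither the selecting drug nor whether the subline is a single clone. Members were chosen by the array titles: 2 arrays titled A2780CP20 and 2 titled A2780, which are 4 of the 8 arrays of the series. The other arrays hold A2780 cells given temsirolimus, an inhibitor of the mTORC1 kinase complex, for 24 h (2 arrays) or 48 h (2 arrays). They entered here only to estimate the spread of each gene and as levels beside those of the untreated lines. All cells grew in RPMI medium with fetal bovine serum. The drug stock was in DMSO, and the labels do not say whether untreated cells received DMSO. Where a gene had several probe sets, the one with the highest mean was taken, which left 18417 genes.

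Cisplatin kills cells by forming adducts and crosslinks on DNA. Cells that survive it are known to differ in drug uptake and export, in conjugation of the drug to glutathione and metallothionein, in repair of crosslinks and in the threshold for apoptosis. Growth factor signalling through PI3K, AKT and mTOR and the FOXO factors it restrains is also commonly altered in ovarian carcinoma lines.

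Array medians lay between 6.66 and 6.72 log2 units. Across genes the A2780 arrays correlated at r = 0.996, the A2780CP20 arrays at 0.991, and arrays of the different lines at 0.982 to 0.989. The SD of the log2 differences between arrays was 0.181 within A2780, 0.287 within A2780CP20 and 0.316 to 0.408 between the lines. The spread within A2780CP20 was therefore larger than within A2780 and not far below that between the lines. The arrays labelled 24 h stood apart from all others, with an SD of 0.655 to 0.673 against every other array, while those labelled 48 h lay at 0.201 to 0.244 from A2780. Whether labels were exchanged between the arrays labelled 24 h and those labelled A2780CP20 was not tested, so every direction below is that of the labels.

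The labelled tissue was set against its markers. Of 19 epithelial and Mullerian markers, 4 lay above the highest array median in A2780 and 6 in A2780CP20. EPCAM, the epithelial adhesion molecule, was at 5.45 and 5.68 in A2780 and 5.26 and 5.34 in A2780CP20, below the array medians. PAX8, a transcription factor of the Mullerian lineage, was at 7.06 and 6.78 against 6.71 and 6.77. Of 12 fibroblast and stromal markers, 10 lay above the highest array median in A2780 and 9 in A2780CP20. Of 11 immune markers, 0 did in either line. Neither EPCAM (adjusted p = 0.127) nor PAX8 (adjusted p = 0.357) was called, and in both lines more stromal than epithelial markers lay above the array medians.

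Each change is the mean of the A2780CP20 arrays minus that of the A2780 arrays on the log2 scale (n = 2 arrays each). It is given ± its standard error from limma, whose spread per gene was pooled over all groups, treated A2780 included. The SD between replicate arrays was 0.287 in A2780CP20, 0.181 in A2780, 0.169 at the 24 h label and 0.166 at the 48 h label. The pooled spread can therefore understate that of the subline, which makes errors and adjusted p-values too small and favours calls. With array quality weights, lower for the subline, 1719 genes were called. Genes with a limma adjusted p under 0.05 were called, and "rose" and "fell" are used only of called genes. The labels do not state that replicates came from separate cultures. If they did not, the p-values reflect technical spread between these samples and nothing more.

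Falls outnumbered rises and were larger. In A2780CP20, 2214 genes (12%) fell and 1174 (6.37%) rose, together 18.4% of genes tested. Of the falls, 120 (0.652%) were at least 2-fold, against 6 of the rises (0.0326%), 126 genes (0.684%) in all. The median fall was -0.56 and the median rise 0.46. Groups did not overlap for any called gene, but this also held for 55.3% of all genes. Where arrays of the lines are said below not to overlap, this holds for every called gene and adds no evidence. A2780CP20 replicate 1 lay farther from A2780 than replicate 2 for 69.7% of the genes that fell and 54.9% of those that rose. Over all genes this share was 61.0%. The size of the falls differed between the arrays of the subline (median -0.62 and -0.49).

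The number of calls depended on the arrays in the fit. With only the 4 untreated arrays, 1022 genes were called, 790 lower (4.29%) and 232 higher (1.26%). It was 1206 without A2780 replicate 1, 974 without A2780 replicate 2 and 5543 without A2780CP20 replicate 2. Counts from the fit of the 4 untreated arrays are given below beside each gene group the account leads with.

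**Figure D1:**
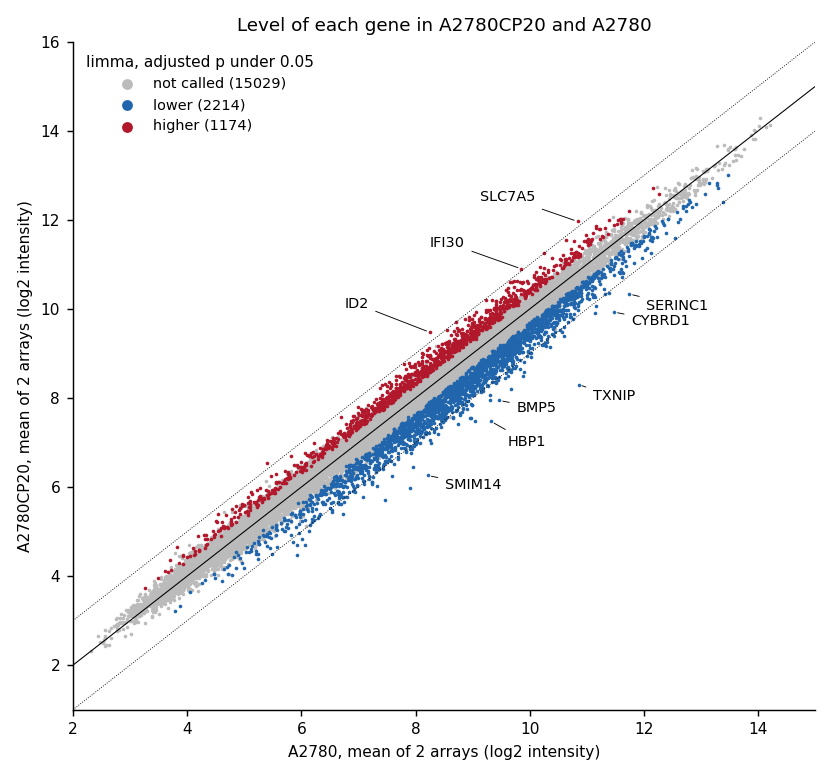
Each point is a gene, with its mean log2 intensity over the 2 A2780 arrays on the horizontal axis and over the 2 A2780CP20 arrays on the vertical axis; red points were called higher (1174), blue points lower (2214), and dotted lines mark a 2-fold difference. The blue points reach farther from the diagonal than the red ones, down to TXNIP at -2.56.

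TXNIP, the gene of a thioredoxin-binding arrestin that restrains glucose uptake, fell most. It was at 10.90 and 10.81 in A2780 and 8.14 and 8.46 in A2780CP20. Both arrays of the subline were more than 2 log2 units below both arrays of the parent. The difference was -2.56 ± 0.12 (5.88-fold lower, limma adjusted p = 0.000274). HBP1, a transcriptional repressor that holds cells in G1, was at 9.24 and 9.40 against 7.24 and 7.71 (-1.85 ± 0.15, adjusted p = 0.00134). Promoter sequences were at hand for 14237 of the genes. The 250 bases before the start are shown for 3 genes of this sensing and growth-restraint arm. The motif marked was chosen gene by gene as one that occurs there. The TXNIP window shown does not hold the exact letters CACGTG. Inexact forms of the E-box were not searched, so this does not mean that a site for MondoA is absent. Capitals mark the FOXO site GTAAACA in TXNIP (GRCh38.p14, chr1:145996580-145996829, minus strand) and HBP1 (chr7:107168753-107169002, plus strand), and the E-box CACGTG in ARRDC4 (chr15:97960453-97960702, plus strand), all from RefSeq. HBP1 was added to the printed promoters after its values were seen.
TXNIP: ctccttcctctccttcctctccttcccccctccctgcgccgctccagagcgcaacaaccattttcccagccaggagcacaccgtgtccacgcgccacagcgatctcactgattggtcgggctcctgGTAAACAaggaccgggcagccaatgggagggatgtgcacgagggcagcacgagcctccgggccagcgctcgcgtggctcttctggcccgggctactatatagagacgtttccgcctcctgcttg
HBP1: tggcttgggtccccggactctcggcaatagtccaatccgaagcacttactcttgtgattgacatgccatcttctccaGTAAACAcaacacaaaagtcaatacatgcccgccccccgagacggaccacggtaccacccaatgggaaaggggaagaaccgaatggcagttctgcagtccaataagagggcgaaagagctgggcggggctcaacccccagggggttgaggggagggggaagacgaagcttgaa
ARRDC4: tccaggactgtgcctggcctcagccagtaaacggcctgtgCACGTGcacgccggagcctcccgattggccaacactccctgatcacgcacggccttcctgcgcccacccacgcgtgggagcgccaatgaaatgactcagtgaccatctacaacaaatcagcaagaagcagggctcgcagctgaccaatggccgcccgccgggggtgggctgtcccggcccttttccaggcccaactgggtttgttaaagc

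The FOXO site began 124 bases before the start in TXNIP and 173 bases before it in HBP1, and the E-box 210 bases before it in ARRDC4. On either strand of the 300-base promoters, GTAAACA occurred in 2.45% of all promoters (349 of 14237), in 4.41% of those of genes that fell (81 of 1836) and in 1.42% of those of genes that rose (13 of 917). CACGTG occurred in 8.88%, 9.53% and 10.5% of the same groups. Promoters of genes that rose had a higher median G+C share (68.7%) than those of all genes (63.0%) or of genes that fell (63.3%). These shares describe letters in a fixed window and are neither binding sites nor tests.

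The other large falls came from varied functions. SMIM14, a small membrane protein gene, was at 8.27 and 8.16 in A2780 and 6.36 and 6.16 in A2780CP20 (-1.96 ± 0.14). TCP11L2 was at 7.85 and 7.96 against 5.75 and 6.21 (-1.93 ± 0.15), and SLC44A5, a choline transporter-like gene, at 7.49 and 7.43 against 5.56 and 5.86 (-1.75 ± 0.12). The subline arrays lay below the parent arrays by well over 1 log2 unit in each. CYBRD1, a ferric reductase of the plasma membrane, was at 11.50 and 11.45 against 9.81 and 10.05 (-1.55 ± 0.11, adjusted p = 0.000915). BMP5, a secreted ligand of the bone morphogenetic protein family, was at 9.45 and 9.48 against 7.97 and 7.92 (-1.52 ± 0.14, adjusted p = 0.00136). SERINC1, a serine incorporator family gene, was at 11.72 and 11.76 against 10.34 and 10.33 (-1.41 ± 0.08, adjusted p = 0.000745). In these genes the arrays of a line lay close together compared with the gap between the lines. SELENOP, a selenium carrier, fell by 1.45 from a level already below the array medians. ADGRL3, an adhesion receptor, fell by 1.36 ± 0.10, the phospholipase gene PNPLA8 by 1.34 ± 0.12, and PCMTD1, related to a protein repair enzyme, by 1.37 ± 0.12. Of the 25 largest falls, 25 were called with only the 4 untreated arrays, and CARF (-1.34 ± 0.22) and ZNF846 lost their calls without A2780 replicate 2.

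The largest rise was in ID2, whose product blocks DNA binding by basic helix-loop-helix factors. It was at 8.22 and 8.28 in A2780 and 9.49 and 9.46 in A2780CP20. The arrays of each line differed by less than 0.10 while the lines differed by 1.23 ± 0.09 (2.34-fold higher, limma adjusted p = 0.000915). SLC7A5, the light chain of the large neutral amino acid transporter, was at 10.78 and 10.89 against 11.89 and 12.04 (1.13 ± 0.09, adjusted p = 0.00136). IFI30, a lysosomal thiol reductase of antigen processing, was at 9.88 and 9.82 against 10.99 and 10.81 (1.05 ± 0.10). HMGA1, an architectural chromatin protein with near-identical pseudogene copies that make its probes uncertain, was at 10.15 and 10.33 against 11.07 and 11.42 (1.01 ± 0.14). All subline arrays lay above all parent arrays in these genes, which was a condition of their choice. MAP2K3, the kinase that activates p38, was at 7.71 and 7.88 against 8.75 and 8.77 (0.97 ± 0.10). HCFC1, a chromatin cofactor of cell proliferation, rose by 0.97 ± 0.14, and NABP2, a single-stranded DNA-binding protein gene, by 0.92 ± 0.10. CKB, brain-type creatine kinase, was at 9.68 and 9.71 against 10.60 and 10.61 (0.91 ± 0.09). SPHK1, which makes sphingosine 1-phosphate, was at 8.23 and 8.25 against 9.08 and 9.16 (0.88 ± 0.10, adjusted p = 0.00218). H2AX, the histone variant phosphorylated at DNA breaks, was at 9.65 and 9.59 against 10.50 and 10.45 (0.86 ± 0.10, adjusted p = 0.00194). The neurofilament genes NEFH (0.92 ± 0.16) and INA (0.90 ± 0.18) rose too, with subline arrays of 7.98 and 8.62 for INA. INA was the exception among the 25 largest rises that was not called with only the 4 untreated arrays. It and ORM1 lost their calls without A2780 replicate 1, INA and SMAD9 without A2780 replicate 2, and ORM1 without A2780CP20 replicate 1.

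**Figure D2:**
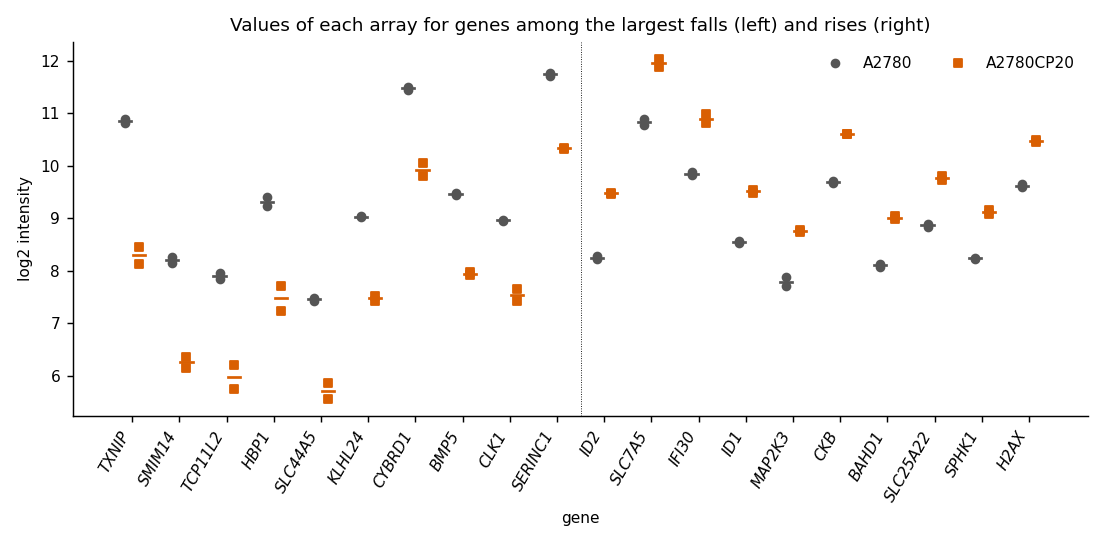
Log2 intensity on each of the 4 untreated arrays for 10 genes among the largest falls (left of the dotted line) and 10 among the largest rises (right); grey circles are A2780 arrays, orange squares A2780CP20 arrays, and short lines the mean of each 2. The genes were chosen from called genes whose arrays do not overlap between the lines. The 2 subline arrays are farthest apart in HBP1 (7.24 and 7.71) and TCP11L2 (5.75 and 6.21).

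TXNIP belongs to the genes that the glucose-sensing factor MondoA drives. Of 11 measured genes of this arm, 4 fell (36.4%) and 2 rose (18.2%), beside 19.3% and 9.71% of genes above the median level. The median of the list was 0.165, with 7 members above 0 and 4 below, so the arm as a whole was not lower. With only the 4 untreated arrays 3 were lower and 2 higher. The arrestin genes ARRDC3 (9.74 and 9.68 against 8.55 and 8.78, -1.05 ± 0.10) and ARRDC4 (7.17 and 7.04 against 5.97 and 6.17, -1.04 ± 0.10) fell with TXNIP. MLXIP, which encodes MondoA itself, was at 8.20 and 8.06 against 8.80 and 9.17 and rose by 0.86 ± 0.14. HK2, the hexokinase that traps glucose, rose by 0.58 ± 0.10, and the glucose transporter gene SLC2A3 fell by 0.42 ± 0.12 (adjusted p = 0.0405). The arrestins and MLXIP moved in opposite directions, with no overlap between lines in any of them. The call for SLC2A3 was lost with only the 4 untreated arrays.

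In the list of FOXO factors and genes of growth restraint, every called member was lower. Of 30 measured, 14 fell (46.7%, against 19.3% of genes above the median level) and 0 rose (median -0.30, against 0.03 over all genes). With only the 4 untreated arrays 9 were lower. The count lay between 8 without A2780 replicate 1 and 15 without A2780CP20 replicate 2. HBP1 led, followed by KLHL24, a ubiquitin ligase adaptor, at 9.04 and 9.03 against 7.42 and 7.53 (-1.56 ± 0.10, adjusted p = 0.00086). YPEL5, of a conserved family linked to growth arrest, was at 9.00 and 8.92 against 7.60 and 7.52 (-1.40 ± 0.12). The antiproliferative gene BTG1 was at 10.60 and 10.47 against 9.51 and 9.56, and fell by 1.00 ± 0.09. Parent and subline arrays were separated by over 0.9 log2 units in each of these. Among further members, PDCD4, an inhibitor of translation initiation, fell by 0.95 ± 0.10, PIK3IP1, an inhibitor of PI3K, by 0.93 ± 0.16, and CDKN1B, which encodes the CDK inhibitor p27, by 0.79 ± 0.09. The atypical cyclin gene CCNG2 fell by 0.75 ± 0.11. The factors themselves differed little: FOXO1 was at 0.05 ± 0.10 and FOXO3 at 0.23 ± 0.11, neither called, and FOXO4 fell by 0.38 ± 0.10. In all, 16 members were not called.

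BMP signalling and ID genes moved both ways, 5 of 25 up (20%) and 4 down (16%), beside 9.71% and 19.3% of genes above the median level. Among the targets, ID1 was at 8.57 and 8.53 against 9.49 and 9.55 (0.97 ± 0.09, adjusted p = 0.00136), and ID3 at 11.22 and 11.19 against 11.73 and 11.84 (0.58 ± 0.09). SMAD6, an inhibitory SMAD that BMP induces, rose by 0.46 ± 0.10, and SMAD9, a receptor-activated SMAD, by 0.90 ± 0.15 with subline arrays of 8.56 and 9.01. The ligand BMP5, the receptor gene ACVR2A (-0.66 ± 0.12), the signal-transducing SMAD5 (-0.44 ± 0.12) and the shared partner SMAD4 (-0.41 ± 0.09) fell. Other ligands did not pass the test, with BMP4 at 0.18 ± 0.09 and BMP7 at 0.03 ± 0.15, nor did ID4 at 0.28 ± 0.10 (adjusted p = 0.0879). When only the 4 untreated arrays were fitted, 4 were higher and 1 lower, and without A2780CP20 replicate 2 there were 6 higher and 7 lower. SMAD5 was at -0.25 and not called without A2780CP20 replicate 1. The 250 bases before the start of ID2 (GRCh38.p14, chr2:8681806-8682055, plus strand, RefSeq) are shown as the promoter of the largest rise, with NFY boxes, CCAAT or its reverse complement, in capitals.
ID2: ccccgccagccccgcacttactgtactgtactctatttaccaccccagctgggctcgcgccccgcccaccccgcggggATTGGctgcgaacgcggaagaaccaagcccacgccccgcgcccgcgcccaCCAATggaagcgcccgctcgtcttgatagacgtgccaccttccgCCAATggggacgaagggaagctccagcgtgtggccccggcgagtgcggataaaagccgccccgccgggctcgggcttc

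The ID2 window held 3 NFY boxes, beginning 172, 122 and 78 bases before the start. On either strand, CCAAT occurred in 36.3% of all promoters, 37.4% of those of genes that fell and 32.7% of those that rose. The GC-rich SMAD site GGCGCC occurred in 25.9%, 27.0% and 35.3%, an order that follows the G+C share of the same groups. This site did not occur in the ID2 window shown.

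Of 21 Notch pathway genes, 2 rose (9.52%) and 1 fell (4.76%), with a median of 0.22. Among genes above the median level 9.71% rose and 19.3% fell. With only the 4 untreated arrays 1 was higher and 1 lower. The receptor NOTCH1 rose by 0.54 ± 0.09 and the ligand JAG2 by 0.46 ± 0.09, while RBPJ, the DNA-binding factor of the pathway, was at 10.80 and 10.79 against 10.00 and 10.25 and fell by 0.67 ± 0.10. The repressor gene HEY1 was at 0.24 ± 0.08 and not called (adjusted p = 0.0899). Of 29 WNT receptors, antagonists and targets, 7 fell (24.1%) and 3 rose (10.3%), near the 19.3% and 9.71% of genes above the median level. The secreted antagonist DKK1 was at 12.16 and 12.31 against 11.63 and 11.60 (-0.62 ± 0.14), and CTNNB1, which encodes β-catenin, fell by 0.41 ± 0.09. The antagonists DKK2 (-0.52 ± 0.13) and WIF1 (-0.43 ± 0.11) also fell, as did the receptor gene FZD4 (-0.49 ± 0.12). LEF1, a target and effector, rose by 0.59 ± 0.17 from a low level of 4.28 and 4.39. The WNT counts were 1 lower and 1 higher with only the 4 untreated arrays, and 2 lower and 3 higher without A2780CP20 replicate 1.

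Genes of the primary cilium and its centriolar base had the highest share of falls among the lists, 19 of 32 (59.4%), with 0 rises and a median of -0.53. The primary cilium is an antenna built on the mother centriole that carries Hedgehog and other receptors, and its parts are moved by intraflagellar transport. In the transport complex that moves toward the tip (IFT-B), IFT80 was at 9.85 and 9.79 against 8.75 and 8.94 (-0.98 ± 0.10, adjusted p = 0.00152), IFT172 fell by 0.84 ± 0.11, IFT88 by 0.83 ± 0.10, IFT74 by 0.76 ± 0.17 and IFT20 by 0.48 ± 0.12. Other members of this complex did not pass: IFT57 was at -0.10 ± 0.11, IFT27 at -0.18 ± 0.11 and IFT52 at -0.41 ± 0.19, whose subline arrays were 8.03 and 7.33. In the complex that moves back (IFT-A), IFT140 fell by 0.42 ± 0.10, whereas IFT122 was at -0.26 ± 0.10 (adjusted p = 0.108) and IFT43 at -0.05 ± 0.11. In the BBSome and its chaperones, which carry membrane proteins, BBS9 was at 7.91 and 7.90 against 6.65 and 7.04 (-1.06 ± 0.18), BBS12 at 7.51 and 7.36 against 6.43 and 6.52 (-0.96 ± 0.10), and BBS10 at 7.81 and 7.89 against 6.75 and 7.12 (-0.92 ± 0.13). All subline arrays of these 3 genes lay below all parent arrays. BBS4 (-0.91 ± 0.10) and BBS2 (-0.81 ± 0.08) fell as well, and BBS1 did not pass (-0.10 ± 0.11).

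The anterograde motor subunit KIF3A fell by 0.77 ± 0.11. At the transition zone, the gate at the base of the cilium, AHI1 fell by 0.86 ± 0.10, TMEM67 by 0.74 ± 0.11 and TMEM231 by 0.59 ± 0.15, and the centriolar satellite gene OFD1 by 0.66 ± 0.15. CEP290 was at 7.43 and 7.61 against 6.47 and 7.26, and its difference of -0.66 ± 0.22 did not pass (adjusted p = 0.0745), with subline arrays far apart. CEP164, of the mother centriole, was at 0.05 ± 0.09. Outside the list, and chosen after their values were seen, WDR19 of IFT-A was at 8.85 and 8.71 against 7.46 and 7.78 (-1.16 ± 0.12) and the kinesin-2 adaptor KIFAP3 at 9.87 and 9.77 against 8.49 and 8.81 (-1.17 ± 0.12). The median fall of the list was -0.68 on A2780CP20 replicate 1 and -0.44 on replicate 2, so the arrays of the subline differed in size but not in direction for most members. The 4 untreated arrays alone gave 11 lower genes of the 32. The count was 11 without either A2780 array, 14 without A2780CP20 replicate 1 and 22 without A2780CP20 replicate 2.

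**Figure D3:**
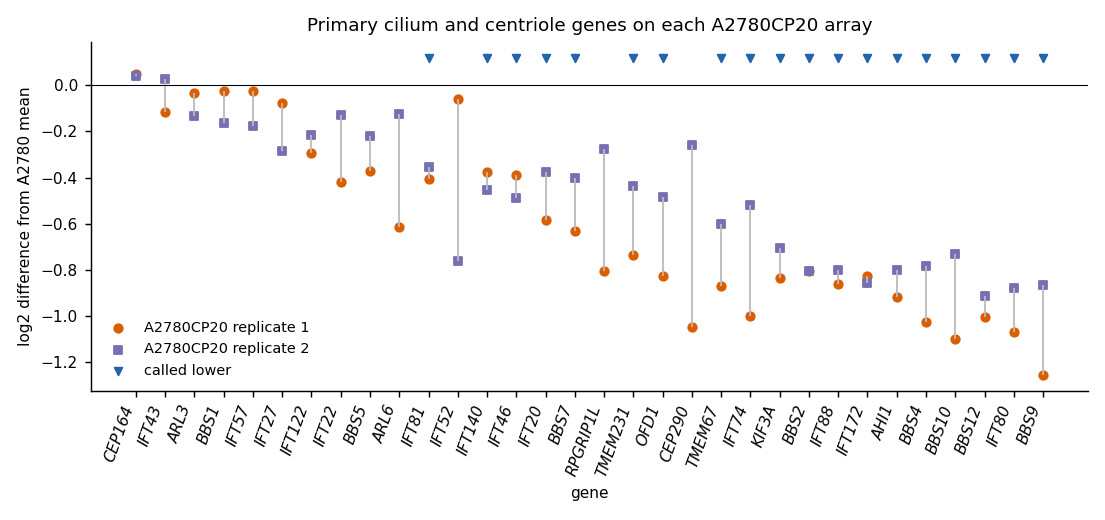
Log2 difference of each A2780CP20 array from the A2780 mean for 32 cilium and centriole genes, ordered by their mean difference; circles are replicate 1, squares replicate 2, grey lines join the 2, and triangles mark the 19 genes called lower. All but 1 of the genes (CEP164) had a negative mean difference, and CEP290, IFT52 and RPGRIP1L, whose arrays lie far apart, were not called.

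Zinc finger genes, most of them transcriptional repressors that silence repeats and genes through KRAB domains, were mostly lower where called. By symbol (ZNF), 142 of 482 fell (29.5%, against 12% of all genes and 19.3% of those above the median level). Another 14 rose (2.90%), and the median was -0.21. ZNF277 was at 8.12 and 8.43 against 6.81 and 7.16 (-1.29 ± 0.14), ZNF248 at 7.85 and 7.98 against 6.54 and 6.98 (-1.16 ± 0.15), and ZNF846 at 6.03 and 6.09 against 4.61 and 4.78 (-1.37 ± 0.23). Subline arrays lay below parent arrays in all 3. With the mean of its probe sets ZNF277 was at -0.61 (adjusted p = 0.0234). The genes resemble one another in sequence, so their probes may share signal. The median was -0.32 on A2780CP20 replicate 1 and -0.13 on replicate 2. In the fit of the 4 untreated arrays 60 were lower and 2 higher, and the count of lower genes ran from 46 without A2780 replicate 2, through 66 without A2780 replicate 1 and 98 without A2780CP20 replicate 1, to 217 without A2780CP20 replicate 2.

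Of 30 splicing regulators, 9 fell (30%, against 19.3% of genes above the median level) and 0 rose (median -0.23). CLK1, a kinase that phosphorylates SR splicing factors, was at 8.97 and 8.96 against 7.43 and 7.65 (-1.43 ± 0.10, adjusted p = 0.000915), and its relative CLK4 at 9.02 and 8.91 against 7.69 and 8.03 (-1.11 ± 0.12). Arrays of the lines were over 0.8 log2 units apart in both. With the mean of its probe sets CLK4 was at -0.43 and not called (adjusted p = 0.138). Among the SR proteins, SRSF5 fell by 0.50 ± 0.11 and SRSF6 by 0.38 ± 0.10, and LUC7L3, of the U1 complex, by 0.53 ± 0.10. HNRNPA1 fell by 0.55 ± 0.13, a value made uncertain by its near-identical pseudogenes. In the fit of the 4 untreated arrays 3 were lower, under quantile normalization 5 were lower and 1 higher, and without A2780CP20 replicate 1 there were 5 lower and 3 higher.

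Cholesterol genes were lower: of 20 measured, 9 fell (45%, against 19.3% of genes above the median level) and 0 rose (median -0.25). With only the 4 untreated arrays 6 were lower. Cholesterol is made from acetyl-CoA through the mevalonate pathway under control of the factor SREBP2. MSMO1, a sterol methyl oxidase, was at 9.82 and 9.96 against 8.58 and 8.58 (-1.31 ± 0.10, adjusted p = 0.00124). SC5D, the desaturase of a late step, was at 9.39 and 9.54 against 8.23 and 8.72 (-0.99 ± 0.15). STARD4, a sterol carrier, was at 10.41 and 10.41 against 9.61 and 9.49 (-0.86 ± 0.10). In these 3 genes no subline array reached a parent array. INSIG2, which retains SREBP in the endoplasmic reticulum, fell by 0.78 ± 0.12, HMGCS1 by 0.72 ± 0.10 and TM7SF2, a sterol reductase gene, by 0.56 ± 0.09. SREBF2, which encodes SREBP2, fell by 0.37 ± 0.09. The 250 bases before the start of MSMO1 (GRCh38.p14, chr4:165327419-165327668, plus strand, RefSeq) are shown with NFY boxes in capitals, since NFY is a known partner of SREBP.
MSMO1: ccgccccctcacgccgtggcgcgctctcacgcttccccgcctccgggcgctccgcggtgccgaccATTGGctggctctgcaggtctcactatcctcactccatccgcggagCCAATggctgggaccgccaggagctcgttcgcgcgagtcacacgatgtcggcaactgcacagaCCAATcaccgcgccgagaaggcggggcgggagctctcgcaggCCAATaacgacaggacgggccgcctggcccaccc

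This window held 4 NFY boxes, beginning 185, 139, 76 and 34 bases before the start. The sterol regulatory element TCACNCCAC occurred on either strand in 1.14% of all promoters, 1.31% of those of genes that fell and 1.20% of those that rose. This element did not occur in the MSMO1 window shown.

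Of 15 genes of fatty acid synthesis, 3 rose (20%) and 2 fell (13.3%), beside 9.71% and 19.3% of genes above the median level. SREBF1, the SREBP of lipogenesis, was at 8.72 and 8.79 against 9.60 and 9.44 (0.77 ± 0.10), and fatty acid synthase (FASN) at 10.45 and 10.71 against 11.19 and 11.22 (0.63 ± 0.11). The malic enzyme gene ME1 rose by 0.33 ± 0.09. ELOVL6, which elongates fatty acids, fell by 0.57 ± 0.11, and GPAM, the first acyltransferase of glycerolipid synthesis, by 0.41 ± 0.12, a call lost under quantile normalization, median centring and the G+C trend. The 4 untreated arrays alone gave 2 higher and 0 lower, and without A2780CP20 replicate 2 there were 3 higher and 5 lower.

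Of 34 lysosome and autophagy genes, 10 fell (29.4%, against 19.3% of genes above the median level) and 0 rose (median -0.19). LAMP2, a lysosomal membrane protein of chaperone-mediated autophagy, was at 9.90 and 10.01 against 8.84 and 9.04 (-1.02 ± 0.10, adjusted p = 0.00145). ATG14, of the autophagy PI3-kinase complex, fell by 0.73 ± 0.10, the cholesterol carrier NPC2 by 0.57 ± 0.09, WIPI2 by 0.54 ± 0.09 and ATG5 by 0.42 ± 0.09. The regulator TFEB was at 0.15 ± 0.12. The 4 untreated arrays alone gave 4 lower genes, and the count ran from 3 without A2780 replicate 2 to 12 without A2780CP20 replicate 2.

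Of 18 iron genes, 7 fell (38.9%, against 19.3% of genes above the median level) and 1 rose. With only the 4 untreated arrays a single one was lower. Besides CYBRD1, FBXL5, the iron-sensing ubiquitin ligase, fell by 0.59 ± 0.10, NCOA4, the receptor for ferritin turnover, by 0.53 ± 0.09, and the iron importer gene SLC11A2 by 0.41 ± 0.09. STEAP3, another ferric reductase gene, rose by 0.46 ± 0.10. The transferrin receptor gene TFRC was at 11.67 and 11.70 against 11.64 and 11.71, with overlapping groups.

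Amino acid transporters moved both ways, 3 of 25 up (12%) and 3 down (12%), against 2 and 2 with only the 4 untreated arrays. Beside SLC7A5, its heavy chain SLC3A2 rose by 0.35 ± 0.09 and the glutamine transporter gene SLC1A5 was at 9.78 and 9.78 against 10.77 and 10.50 (0.86 ± 0.11). SLC38A9, the lysosomal arginine sensor of mTORC1, was at 8.66 and 8.84 against 7.28 and 7.55 (-1.34 ± 0.14). SLC6A15 fell by 0.82 ± 0.11 and SLC38A2, a neutral amino acid transporter gene, by 0.66 ± 0.12. Of 26 targets of the stress factor ATF4 and genes of serine and one-carbon metabolism, 6 rose (23.1%) and 2 fell (7.69%). Among genes above the median level 9.71% rose and 19.3% fell. ATF5 was at 7.53 and 7.77 against 8.40 and 8.39 (0.75 ± 0.11), and SHMT2, of mitochondrial folate metabolism, rose by 0.45 ± 0.09. TRIB3, a pseudokinase gene, rose by 0.49 ± 0.12. Fitting only the 4 untreated arrays, or leaving out either A2780 array, 1 of the 26 was higher. The amino acid response element TGATGNAA occurred in 2.54% of all promoters and 1.53% of those of genes that rose.

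In ribosome biogenesis, 9 of 28 rose (32.1%, against 9.71% of genes above the median level) and 0 fell (median 0.14). CCDC86, a nucleolar protein gene, was at 8.76 and 8.65 against 9.74 and 9.67 (1.00 ± 0.11, adjusted p = 0.00167). RRP9, of the U3 particle that processes ribosomal RNA, was at 9.13 and 9.40 against 10.14 and 9.80 (0.71 ± 0.14), and NOP16 at 8.57 and 8.55 against 9.28 and 9.13 (0.65 ± 0.09). All subline arrays exceeded all parent arrays in these genes. RRP12, an export factor for ribosomal subunits, rose by 0.60 ± 0.09 and TCOF1, which supports RNA polymerase I, by 0.55 ± 0.10. The 4 untreated arrays alone gave 3 higher genes, and the count ran from 3 without A2780 replicate 1 to 10 without A2780CP20 replicate 2, where 2 were lower. Of 23 cytosolic ribosomal protein genes, 1 rose and 1 fell. RPL22 was at 9.45 and 9.34 against 8.47 and 8.27 (-1.03 ± 0.10), and its paralog RPL22L1 at 7.16 and 7.18 against 7.67 and 7.80 (0.57 ± 0.11); the copies resemble each other, so their probes may share signal.

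Of 27 translation initiation factors, 6 fell (22.2%) and 4 rose (14.8%), beside 19.3% and 9.71% of genes above the median level. EIF4A2, a helicase of cap-dependent initiation, fell by 0.78 ± 0.11 (-0.50 with the mean of its probe sets, adjusted p = 0.0129), and EIF4G1, the scaffold of the same complex, rose by 0.54 ± 0.09. Of 19 aminoacyl-tRNA synthetases, 3 rose and 1 fell, led by VARS1 (0.57 ± 0.10), and of 22 genes of nucleotide synthesis, 2 rose and 1 fell, led by CTPS2 (-0.64 ± 0.10). Of 24 components of mTOR and PI3K-AKT signalling, 6 rose and 3 fell, against 6 higher and 8 lower without A2780CP20 replicate 2. EIF4EBP1, the translation inhibitor that mTORC1 phosphorylates, was at 8.83 and 9.10 against 9.53 and 9.64 (0.62 ± 0.12), MLST8 rose by 0.53 ± 0.10, AKT1 by 0.44 ± 0.09 and RPTOR by 0.34 ± 0.09. RICTOR, the mTORC2 subunit, was at 7.87 and 7.96 against 7.00 and 7.50 (-0.67 ± 0.15), and PIK3R1, the regulatory subunit of PI3K, fell by 0.65 ± 0.11. MTOR itself was at 9.32 and 9.38 against 9.24 and 9.49, with overlapping groups (0.02 ± 0.10, adjusted p = 0.934). None of the 6 rises among mTOR components was called with only the 4 untreated arrays, and 2 genes were lower. The same fit called 0 synthetases, 1 initiation factor and 1 nucleotide synthesis gene, all lower.

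Genes of platinum and drug transport moved in shares near those of all genes (12% lower and 6.37% higher). Glutathione and NRF2 genes lay below those shares, with 3.57% lower and 0% higher. Of 19 transporters, 2 fell (10.5%) and 1 rose (5.26%), and 0 were called with only the 4 untreated arrays, a fit that called 5.55% of all genes and had 4689 genes at an unadjusted p under 0.05. The copper transporter SLC31A1, through which cisplatin enters cells, was at 10.43 and 10.14 against 9.98 and 10.15 (-0.22 ± 0.12, adjusted p = 0.233). The copper exporters ATP7A (8.14 and 8.14 against 7.27 and 7.91, -0.55 ± 0.18, adjusted p = 0.0639) and ATP7B (-0.17 ± 0.14) did not pass, and the ATP7A difference rested mainly on replicate 1 of the subline. Without A2780CP20 replicate 2, ATP7A was called at -0.87. The efflux pumps ABCB1 (4.88 and 4.86 against 4.91 and 4.70) and ABCC2 (5.75 and 5.56 against 5.69 and 5.65) were below the array medians and overlapped between lines. ABCC1 rose by 0.40 ± 0.12 (adjusted p = 0.0487, and 0.23 without A2780CP20 replicate 2, not called), and SLC47A1 (-0.49 ± 0.09) and ABCC5 (-0.45 ± 0.08) fell. Of 28 glutathione and NRF2 genes, 1 fell, the metallothionein MT2A (-0.47 ± 0.09), and 0 rose, against 6 lower and 2 higher without A2780CP20 replicate 2. GSTP1, the main glutathione transferase of many tumours, was at 11.95 and 12.01 against 11.94 and 12.04. GCLM, of glutathione synthesis, was at -0.34 ± 0.11 and not called (adjusted p = 0.0633).

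A list drawn up for platinum lesions held damage kinases, mismatch repair and translesion genes beside those of crosslink and excision repair. Of its 34 measured members, 12 fell (35.3%, against 19.3% of genes above the median level) and 0 rose (median -0.24). The count does not separate members by their part in the response to platinum. With only the 4 untreated arrays 6 were lower. The count ran from 4 without A2780 replicate 2 and 6 without A2780 replicate 1 to 16 without A2780CP20 replicate 2. Among the damage kinases, ATM was at 9.96 and 10.03 against 8.94 and 9.31 (-0.87 ± 0.13, adjusted p = 0.00405), and ATR fell by 0.60 ± 0.13. In mismatch repair, PMS1 was at 9.19 and 9.17 against 8.11 and 8.58 (-0.84 ± 0.14) and PMS2 fell by 0.45 ± 0.10. In the Fanconi pathway, which unhooks crosslinks, FANCL was at 9.43 and 9.80 against 8.92 and 8.91 (-0.70 ± 0.12), FANCM fell by 0.62 ± 0.12 and FANCB by 0.60 ± 0.15. Subline arrays lay below parent arrays in ATM, PMS1 and FANCL. In nucleotide excision repair, ERCC4, the nuclease subunit XPF, fell by 0.70 ± 0.10 and XPA by 0.43 ± 0.11, while its partner ERCC1 was at 9.16 and 9.15 against 8.96 and 8.87 and not called (-0.24 ± 0.10, adjusted p = 0.125). The translesion polymerase scaffold REV1 fell by 0.62 ± 0.10. Under quantile normalization 9 of the 34 were lower and 3 higher. BRCA1 was at 9.29 and 9.40 against 9.17 and 9.53 (0.01 ± 0.13).

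Of 24 target genes of the DNA damage response, 7 fell (29.2%) and 2 rose (8.33%), beside 19.3% and 9.71% of genes above the median level. When only the 4 untreated arrays were fitted, 1 was lower. PPM1D, a phosphatase that ends the damage response, was at 11.14 and 11.12 against 10.43 and 10.55 (-0.64 ± 0.09). TP53INP1 fell by 0.91 ± 0.19, with subline arrays of 7.79 and 8.44, and TIGAR, a regulator of glycolysis, by 0.51 ± 0.10. CDKN1A, which encodes p21, was at 0.03 ± 0.09 and MDM2 at -0.14 ± 0.12, neither called. Among 17 BCL2 family genes, the mitophagy receptor BNIP3L was at 10.42 and 10.28 against 8.93 and 9.34 and fell by 1.22 ± 0.13, and the pore-forming members BAK1 (0.54 ± 0.11) and BOK (0.34 ± 0.10) rose. With only the 4 untreated arrays, or without either A2780 array, 0 of the 17 were higher. The survival genes MCL1 (-0.07 ± 0.09), BCL2L1 (0.25 ± 0.10) and BCL2 (-0.03 ± 0.10) did not pass.

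Interferon-stimulated genes fell in 9 of 33 cases (27.3%, against 19.3% of genes above the median level) and rose in 0. The median of the list was nevertheless 0.02 (-0.01 under quantile normalization, with 1 higher). IFIT1, which binds foreign RNA, was at 11.36 and 11.42 against 10.35 and 10.37 (-1.03 ± 0.08, adjusted p = 0.00134). The RNA sensors IFIH1 (10.30 and 10.28 against 9.11 and 9.24, -1.12 ± 0.12) and RIGI (7.27 and 7.39 against 6.35 and 6.51, -0.90 ± 0.10) fell, as did IFI6 (-1.14 ± 0.11). In these genes the lines were separated by 0.7 log2 units or more. IRF9, a subunit of the interferon-activated complex, was at 7.14 and 7.11 against 7.10 and 7.11 (-0.02 ± 0.10). A fit of the 4 untreated arrays called 4 lower. Of 15 antigen-processing genes, IFI30 rose and the peptide-trimming protease ERAP1 fell by 0.79 ± 0.10.

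Mesenchymal and matrix genes were lower in 12 of 29 cases (41.4%) and higher in 2 (6.90%), with a median of -0.18. Among genes above the median level 19.3% fell and 9.71% rose. POSTN, which encodes the matrix protein periostin, was at 9.65 and 9.83 against 8.47 and 8.87 (-1.07 ± 0.14). The smooth muscle actin ACTA2 was at 12.54 and 12.53 against 11.54 and 11.64 (-0.95 ± 0.09, adjusted p = 0.00138) and the actin-binding TAGLN fell by 0.83 ± 0.10. The proteoglycans DCN (11.61 and 11.63 against 10.85 and 10.82, -0.79 ± 0.08) and LUM (11.29 and 11.32 against 10.25 and 10.65, -0.86 ± 0.17) fell. No subline array reached a parent array in these genes. The protease FAP fell by 0.88 ± 0.13 and N-cadherin (CDH2) by 0.59 ± 0.12. The collagen genes COL1A1 (0.38 ± 0.09) and COL5A2 (0.48 ± 0.10) rose, COL3A1 was at 0.11 ± 0.11 and COL1A2 at -0.27 ± 0.11, and vimentin (VIM) was at -0.06 ± 0.09. Many of these genes are also the stromal markers, of which 7 of 12 fell and 1 rose; the log2 of their summed intensity was 14.5 on both A2780 arrays and 14.0 on both A2780CP20 arrays. In bulk RNA, fewer cells of a type and less RNA per cell cannot be told apart. Of the mesenchymal genes, 6 were lower and 0 higher with only the 4 untreated arrays; the count of lower genes was 5 without either A2780 array.

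Of 17 EMT transcription factors and cadherins, CDH2 and TCF4 (-0.66 ± 0.17) fell and TCF3 rose by 0.43 ± 0.09. All 3 calls were lost with only the 4 untreated arrays and without either A2780 array, and TCF4 was at -0.36 without A2780CP20 replicate 1. The repressors SNAI2 (11.62 and 11.56 against 11.39 and 11.68, -0.06 ± 0.16), TWIST1 (0.20 ± 0.09) and ZEB1 (-0.42 ± 0.14, adjusted p = 0.0658) did not pass. E-cadherin (CDH1) was below the array medians on all 4 arrays, at 5.19 and 5.46 against 5.76 and 5.33. Among the epithelial markers MSLN, which encodes mesothelin, rose by 0.35 ± 0.10 and LHX1 by 0.32 ± 0.09, both from levels near or below the array medians and both lost with only the 4 untreated arrays. CLDN5 was the single endothelial marker called (0.35 ± 0.10, adjusted p = 0.0380), a call also lost with those arrays alone, and no immune marker was called.

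Proliferation genes were called in both directions. Of 40 DNA replication genes, 3 rose (7.5%) and 2 fell (5%), below the 9.71% and 19.3% of genes above the median level. E2F2 (0.65 ± 0.11) and ORC4 (-0.60 ± 0.10) led. With only the 4 untreated arrays 1 replication gene was higher and 1 lower. Among mitosis genes 15.6% rose and 15.6% fell, beside the same 9.71% and 19.3%. Of 32 mitosis genes, 5 rose and 5 fell, against 1 and 1 with only the 4 untreated arrays and 5 higher and 13 lower without A2780CP20 replicate 2. CDC20, which starts anaphase, was at 10.69 and 10.86 against 11.57 and 11.50 (0.76 ± 0.10), and the kinases PLK1 (0.54 ± 0.13), AURKB (0.48 ± 0.09) and AURKA (0.47 ± 0.10) rose. The kinetochore gene NDC80 fell by 0.60 ± 0.09, and CDK1, the mitotic kinase, was at 9.89 and 9.99 against 9.46 and 9.46 (-0.48 ± 0.09). MKI67, a marker of cycling cells, was at 10.27 and 10.27 against 10.23 and 10.65, with overlapping groups. Of 19 G1 regulators, 4 fell and 1 rose: CDKN1B, CCNG2, CCNG1 and RBL2 (-0.46 ± 0.11) fell, and CDKN2B rose by 0.45 ± 0.13 (0.25 without A2780CP20 replicate 1). With only the 4 untreated arrays 2 of the 19 were lower and 0 higher, so the CDKN2B call was lost. MYC was at 12.00 and 11.94 against 11.43 and 11.85 (-0.33 ± 0.13, adjusted p = 0.123), and without A2780CP20 replicate 2 it was called at -0.54. Of 30 MAPK kinases, feedback and early response genes, 5 rose and 2 fell; beside MAP2K3, SPRED2 (0.60 ± 0.13), MAP2K2 (0.53 ± 0.13) and the ETS factors ETV4 (0.50 ± 0.11) and ETV5 (0.37 ± 0.11) rose, and MAPK8, which encodes JNK1, fell by 0.46 ± 0.10. Just 1 MAPK gene was higher and 0 lower with only the 4 untreated arrays, and 5 were lower without A2780CP20 replicate 2.

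Among 15 oncofetal genes, LIN28A, which blocks let-7 maturation, was at 9.56 and 9.65 against 10.11 and 10.31 (0.61 ± 0.10), and IGF2BP1, an RNA-binding protein gene, rose by 0.44 ± 0.12. HMGB2 fell by 0.74 ± 0.10 and IGF2BP3 by 0.59 ± 0.11. With only the 4 untreated arrays 2 oncofetal genes were higher and 1 lower. Of 34 chaperones, 5 rose (14.7%) and 4 fell (11.8%), against 1 and 2 with only the 4 untreated arrays. DNAJB4 was at 9.63 and 9.70 against 7.97 and 8.45 (-1.46 ± 0.16) and HSPA13 at 10.17 and 10.33 against 9.12 and 9.30 (-1.04 ± 0.11), while HSPE1 rose by 0.62 ± 0.12, with pseudogene copies that leave its probes uncertain. The heat shock factor gene HSF1 rose by 0.47 ± 0.12. Of 31 proteasome genes, 5 rose (16.1%) and 1 fell (3.23%), led by PSMD3 (0.54 ± 0.09) and PSMC3 (0.50 ± 0.09). Of 35 respiratory chain subunits, 4 rose (11.4%) and 3 fell (8.57%), led by NDUFB10 (0.60 ± 0.13), beside 9.71% and 19.3% of genes above the median level. Of 33 glycolysis and hypoxia genes, 5 rose (15.2%) and 2 fell (6.06%), led by HK2 and by P4HA1, a collagen prolyl hydroxylase gene (-0.55 ± 0.13). With only the 4 untreated arrays these 3 lists held 1, 0 and 1 higher genes and 0 lower.

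**Figure D4:**
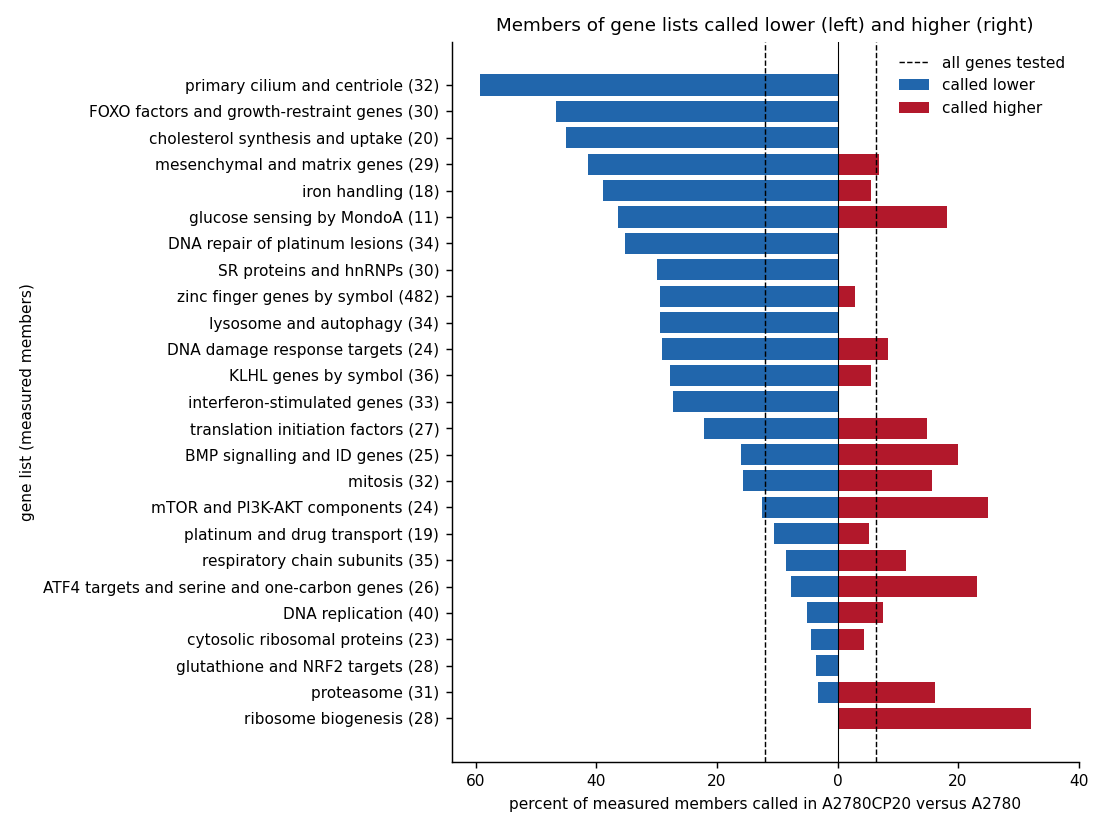
Percent of the measured members of 25 gene lists that were called lower (blue, left) and higher (red, right) in A2780CP20; the number measured is in brackets and dashed lines give the shares over all genes (12% lower, 6.37% higher). Cilium genes stand at 59.4% lower with 0 higher, and ribosome biogenesis at 32.1% higher with 0 lower.

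Beyond function, calls varied with level, chromosome and promoter composition. In 4 bins of near-equal gene number from the lowest to the highest mean level, 87, 346, 859 and 922 genes fell (1.89% in the lowest bin and 18.7% in the third) and 109, 171, 484 and 410 rose. Among the 9208 genes above the median level, 19.3% fell and 9.71% rose, with a median of -0.05. List shares should also be read against those values. Over these genes, chromosome 13 had the lowest median difference (-0.24, 157 genes, 32.5% lower) and chromosome 4 the next (-0.22, 31.4% lower). Chromosome 19 had the highest (0.15, 18.3% higher), followed by chromosome 22 (0.11). The median difference between the A2780CP20 arrays (replicate 1 minus replicate 2) was -0.13 on chromosome 13, -0.14 on chromosome 4 and 0.04 on chromosome 19, against -0.03, -0.03 and -0.01 between the A2780 arrays. On these 3 chromosomes the subline arrays differed in the direction of the difference between the lines, by smaller amounts. On chromosomes 9, 11, 17 and 20 the signs were opposite.

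**Figure D5:**
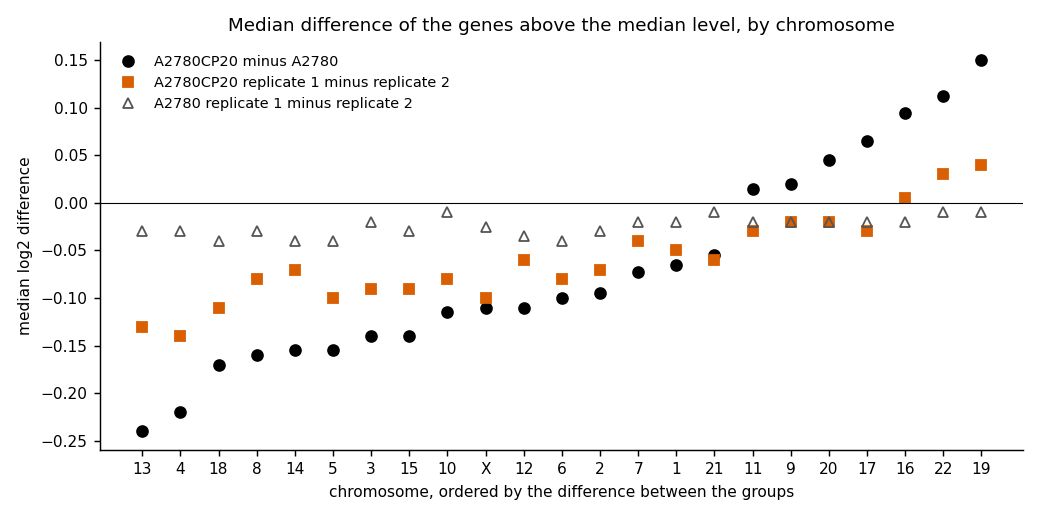
Median log2 difference per chromosome over the genes above the median level: A2780CP20 minus A2780 (black circles), and replicate 1 minus replicate 2 within A2780CP20 (orange squares) and within A2780 (open triangles). The difference between the lines runs from -0.24 on chromosome 13 to 0.15 on chromosome 19, and that between the subline arrays from -0.14 on chromosome 4 to 0.04 on chromosome 19.

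Among 7512 protein-coding genes above the median level with a promoter sequence, the share that fell was 25.6% in the lowest of 4 bins by promoter G+C and then 22.6%, 17.4% and 13.1%, and the share that rose was 5.07%, 8.04%, 10.3% and 15.3%. The medians were -0.15, -0.10, -0.03 and 0.07. Between the subline replicates the medians of the same bins were -0.09, -0.05, -0.04 and -0.04. Base composition therefore moved with the difference between the lines and, in the lowest bin most, with the difference between subline arrays. With each array's trend on promoter G+C removed, 3250 genes were called, 1127 higher and 2123 lower. Among the lists, 19 cilium genes, 14 FOXO and growth-restraint genes, 9 cholesterol genes and 13 repair genes were then lower and 10 ribosome biogenesis genes higher, while the lower genes among splicing regulators came to 6, those among lysosome and autophagy genes to 8 and those among zinc finger genes to 131.

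Small RNA genes were measured through their precursors or host transcripts. Of 173 miRNA genes, 11 rose and 6 fell, beside 6.37% and 12% of all genes. MIR21, chosen after its values were seen as the largest fall among them, was at 7.27 and 7.39 against 6.05 and 5.99 (-1.31 ± 0.12, adjusted p = 0.00136). VMP1, the gene whose end overlaps it, was at 12.09 and 12.10 against 11.74 and 11.85 (-0.30 ± 0.09). Both A2780CP20 arrays were over 1 log2 unit lower for MIR21 and under 0.4 lower for VMP1. The mature miR-21-5p (RefSeq, GRCh38.p14, chr17:59841273-59841294, plus strand) is shown with its seed, bases 2 to 8, in capitals; the array did not measure the mature form separately.
hsa-miR-21-5p: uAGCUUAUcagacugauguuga

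Levels on the arrays of treated A2780 are set beside those of the subline without a test, since both comparisons share the untreated A2780 arrays. TXNIP was at 9.16 and 8.99 on the arrays labelled 24 h and 10.33 and 10.27 on those labelled 48 h, between the subline and the parent. HBP1 was at 7.54 and 7.36 and then 9.46 and 9.45, and KLHL24 at 7.20 and 7.36 and then 9.05 and 9.16. Both were near the subline on the arrays labelled 24 h and near the parent on those labelled 48 h. ID2 was at 9.50 and 9.52 and then 10.62 and 10.72, and ID1 at 10.61 and 10.62 and then 10.82 and 10.75. BMP5 was at 5.30 and 4.88 and then 8.87 and 9.02. SLC7A5 was at 10.97 and 11.01 and then 10.82 and 10.83, near the parent on all 4. ABCB1 was at 8.31 and 8.05 on the arrays labelled 24 h, against 4.91 and 4.70 on those labelled A2780CP20.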

How the data were processed

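Total RNA of 8 samples was hybridised to Affymetrix Human Gene 1.0 ST arrays, 1 sample per array. The authors deposited 1 value per probe set and array for 33297 probe sets. The values lay between 1.8 and 14.99, and this range is that of log2 intensities, the scale assumed for the deposited values. Per the submitters' processing notes Partek was used, without version or role. Background correction, array normalization and probe summary were each not given in the sources used here. In the platform's annotation 19460 probe sets had 1 gene symbol, 1754 several and 12083 none; only the first were used, and 769 of 18417 genes had more than 1. Symbols were updated through gene numbers, which matched RefSeq for 18389 genes.

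limma 3.58.1 in R 4.3.3 was fitted with 1 coefficient per group to all 8 arrays (4 residual and 4.48 prior degrees of freedom), two-sided, with Benjamini-Hochberg adjustment over all genes. The script was tested on simulated data. The number of arrays limits the precision. Groups and replicate numbers came from the titles.

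Members, gene lists and tests were chosen with earlier results of these data known. Named were the 25 largest called rises and falls without overlap, leaving out pseudogenes, small RNAs and unnamed loci; up to 4 called members per list; and fixed genes of platinum handling and growth control. Further list members, described by role, and WDR19, KIFAP3, MIR21 and VMP1 were named after their values were seen. Lists carry counts and medians only. Alternatives covered normalization, a promoter G+C trend (genes without a promoter left as deposited), dim genes, probe sets, the prior, weights, the arrays fitted and a replicate block. Promoters covered 77.3% of genes. The bins by composition therefore hold protein-coding genes only (84.5% of those above the median level). The median G+C shares of called genes and the motif shares cover every gene with a promoter.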

Additional observations from a re-analysis of the deposited data

How the results depend on the processing

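The count of 3388 called genes lay between 974 and 5543 when single arrays were left out, and that of 126 genes called with at least a 2-fold change between 106 and 321. Leaving out either array labelled 24 h, or both, gave 2533 calls, and leaving out either or both labelled 48 h gave 2516, since a lone array leaves no residual of its own. The count was 1022 with only the 4 untreated arrays and 1719 with array quality weights, which were 0.401 for A2780CP20 and 1.17 for A2780. Both counts of calls stayed within 1.5 times under the other alternatives: normalization by quantiles (3504), median centring (3320), the promoter G+C trend (3250), leaving out the dimmest genes (3854), other treatment of probe sets (3403 and 3528) and other priors (3947 and 3301). Rises made up 34.7% of calls, and 43.8% after quantile normalization.

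Replicate numbers are not stated to pair the samples, and the replicate differences of A2780 and A2780CP20 correlated at 0.160 across genes (0.002 to 0.181 for the other pairs of groups). A replicate block over the 4 groups gave 3555 calls. With the replicate block and only the 4 untreated arrays, limma called 0 genes, and 0 at least 2-fold, while 4482 had an unadjusted p under 0.05. Of 194 genes taken by the rule for naming, 182 were called, and 118 of those were also called with only the 4 untreated arrays. None of the 194 reversed its sign as a call under any alternative run. Further genes named after their values were seen are not in this count. Without A2780CP20 replicate 1 the differences of ATR (-0.39), FANCB (-0.35), RICTOR (-0.42), P4HA1 (-0.36), MAP2K2 (0.34), TP53INP1 (-0.58) and H2BC13 (-0.41) shrank by over 1.5 times, as did those of IGF2BP1 (0.26) and INA (0.58) without replicate 2; FANCB, H2BC13 and IGF2BP1 were then not called. Calls lost to quantile normalization included LEF1, MSLN, SLC2A3, SRSF6, VMP1, WIF1 and XPA, those lost to median centring ABCC1, SMAD5 and VMP1, and those lost to the promoter G+C trend AKT1, ME1 and VMP1. The deposited values carry no background signal per probe, so limits at dim levels cannot be set.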

Other observations

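Gene families read by symbol added values outside the lists above. Of 36 KLHL genes, adaptors of cullin ubiquitin ligases, 10 fell (27.8%) and 2 rose (5.56%), beside 19.3% and 9.71% of genes above the median level. With only the 4 untreated arrays the counts were 6 and 1. After KLHL24, KLHL28 was at 9.52 and 9.62 in A2780 and 8.35 and 8.55 in A2780CP20 (-1.12 ± 0.10, limma adjusted p = 0.00136), KLHL4 fell by 0.99 ± 0.13 and KLHL9 by 0.75 ± 0.11. Of 359 solute carrier genes, 48 fell (13.4%) and 27 rose (7.52%), close to the shares over all genes (12% and 6.37%); after quantile normalization 42 were lower and 41 higher. SLC25A22, a mitochondrial glutamate carrier, was at 8.89 and 8.84 against 9.73 and 9.80 (0.90 ± 0.09, adjusted p = 0.00138).

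Of 63 replication-dependent histone genes, 6 fell (9.52%) and 3 rose (4.76%), below the shares over all genes (12% and 6.37%). With only the 4 untreated arrays the counts were 1 and 1. The linker histone H1-3 was at 9.34 and 9.28 against 9.94 and 10.01 (0.67 ± 0.09), while H2BC21 fell by 0.69 ± 0.17 and H2BC13 by 0.64 ± 0.16. Core histone genes are near-identical, which leaves single members uncertain. Of 192 small nucleolar RNA genes, 17 fell and 6 rose, shares of 8.85% and 3.13%, below those over all genes (12% and 6.37%). These short transcripts lie in host introns whose signal cannot be told apart on the array.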
